A study of Mus musculus with 38 samples.

Results

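Of 38 one-colour arrays hybridised with RNA of stromal vascular cells of mouse epididymal fat, 3 carried brown fat transcripts at a high level. They were the low fat diet (LFC) arrays of day 6 and day 10 and the array of the lowest dose group (HF5) at week 12, called the 3 high arrays in what follows. They were picked from the levels of Ucp1, Cidea, Cpt1b and Dio2 on these same 38 arrays, so their brown fat genes are described here with no test. Each was set against the high fat diet control (HFC) array of its own time point, which gave 3 pairs of 1 array against 1 array and 6 arrays in all.

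All animals were C57BL/6J mice, weaned at 3 to 4 weeks of age, and the labels name no transgene or deletion. In the LFC diet fat supplied 10% of the calories, and in the high-fat, high-sucrose HFC diet it supplied 60%. HF5, HF20 and HF75 mice ate the HFC diet together with 5, 20 or 75 µg of KAL-1, a botanical formulation. The set held 10 LFC, 10 HFC, 6 HF5, 6 HF20 and 6 HF75 arrays, 1 array for each diet and time point, and the labels do not say whether the RNA of an array came from 1 animal or from a pool.

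The labels describe the material as macrophages of the epididymal depot within its stromal vascular fraction, which is what remains of fat tissue once adipocytes are removed. On the 3 high arrays the macrophage genes Adgre1 and Csf1r were measured well above background, at levels of 2.57, 1.87 and 2.12 for Adgre1 and 2.27, 0.82 and 0.28 for Csf1r (LFC day 6, LFC day 10 and HF5 week 12, the order used throughout). Adipoq, the adiponectin gene of adipocytes, was measured there too, at 5.33, 3.42 and 3.66, and it lay above background on all 38 arrays. A level is the log2 of the processed intensity minus the log2 of that array's 75th percentile, so 0 is a bright probe and each step of 1 is a doubling. Probes differ in how well they bind, so levels are compared between arrays and never between genes. In RNA of mixed cells, fewer cells of a type and less RNA per cell cannot be told apart.

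The 3 high arrays were dim. Their 75th percentile intensities were 229, 262 and 25.8, against 675, 936 and 950 on the HFC arrays of the pairs, and HF5 week 12 was the dimmest of the 38, followed by HF75 week 3 at 88.4. The share of probes well above background was 65.2%, 65.7% and 40.6% on the high arrays and 74.5%, 75.2% and 90.7% on their HFC arrays. HFC week 12 stood apart by its outlier spots, 11.1% of all, so that 4257 probes could not be compared in the week 12 pair, against 826 at day 10 and 7 at day 6. Both arrays of the day 6 pair shared a slide, as did both of the day 10 pair, while those of week 12 were on separate slides scanned on the same day. The part of array brightness in the results was not tested.

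Brown fat burns fuel to make heat. Noradrenaline from sympathetic nerves acts on β-adrenergic receptors of brown adipocytes, cAMP rises, lipolysis frees fatty acids, and UCP1 in the inner mitochondrial membrane lets protons return without making ATP. The epididymal depot of the mouse is a white, visceral depot that holds very few UCP1-containing cells, and brown fat lies mainly between the shoulder blades and around the large vessels and kidneys, next to skeletal muscle at several of these sites.

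The probe that carried the Ucp1 result and the probe for Cox7a1, a subunit of cytochrome c oxidase found in brown fat and striated muscle, are shown because they had the widest gaps to the highest other array among the thermogenic probes measured on all 38 arrays. Both are 60-base oligonucleotides copied from the array files, printed 5′ to 3′ in lower case with no part marked.
Ucp1 probe: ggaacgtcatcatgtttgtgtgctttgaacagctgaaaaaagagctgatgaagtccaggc
Cox7a1 probe: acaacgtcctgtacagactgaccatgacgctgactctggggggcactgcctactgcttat
Of the 3 forward reading frames, 1 was free of stop codons in the Ucp1 probe and 2 in the Cox7a1 probe. In RefSeq's GRCm38.p6 annotation Ucp1 lies on chromosome 8 from 83290348 to 83298456, and Cox7a1 on chromosome 7 from 30184171 to 30186030.

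Ucp1 and Dio2 are both known targets of cAMP signalling, and the 250 bases before each gene start are shown next. The sequences are RefSeq's, build GRCm38.p6, printed 5′ to 3′ on the strand of the gene, with the matched motifs in capitals.
Ucp1 promoter, chr8:83290098-83290347, plus strand: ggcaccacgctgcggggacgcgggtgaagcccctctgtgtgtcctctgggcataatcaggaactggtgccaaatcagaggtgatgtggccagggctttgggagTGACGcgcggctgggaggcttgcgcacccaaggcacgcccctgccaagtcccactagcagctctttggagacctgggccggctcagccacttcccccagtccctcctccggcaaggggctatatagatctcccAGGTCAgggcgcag
Dio2 promoter, chr12:90739039-90739288, minus strand: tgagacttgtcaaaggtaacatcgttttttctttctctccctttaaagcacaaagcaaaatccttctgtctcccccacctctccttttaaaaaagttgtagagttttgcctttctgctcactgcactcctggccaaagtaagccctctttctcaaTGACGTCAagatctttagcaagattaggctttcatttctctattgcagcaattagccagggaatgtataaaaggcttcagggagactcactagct
The Ucp1 window held TGACG, the core of the cAMP response element, 147 to 143 bases before the start, and AGGTCA, the core of nuclear receptor elements, 14 to 9 bases before it. The Dio2 window held the full cAMP response element TGACGTCA, 95 to 88 bases before the start. Both strands were searched, and TGACGTCA holds TGACG within it. Over 32851 RefSeq promoter windows TGACGTCA was found in 1.55%, TGACG in 17.8% and AGGTCA in 14.0%, so the shorter letters are common. Of the 22 thermogenic genes listed, 15 had a window, and 1 of these held TGACGTCA (Dio2), 4 held TGACG (Dio2, Fabp3, Ppargc1a and Ucp1) and 5 held AGGTCA (Cpn2, Letmd1, Plin5, Slc27a2 and Ucp1). The direct repeat of AGGTCA with 1 base between the copies, in 0.0335% of all windows, and the estrogen-related receptor element TCAAGGTCA, in 0.387%, matched none of the 15. A match is a description of letters in the window. Sites further from the gene start were not searched, and the part of any motif in the levels was not tested.

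Ucp1 had levels of 3.83, 5.11 and 6.93 on the 3 high arrays, against -2.46, -5.05 and -3.18 on the HFC arrays of the same time points. The other 35 arrays ran from -6.35 to -2.46 with a median of -4.70, so the 3 high arrays and the rest did not overlap and were separated by 6.29. The log2 differences within the pairs were 6.29, 10.17 and 10.11, and the smallest of them is a 78.3-fold difference. A second Ucp1 probe gave levels of -0.70, 1.68 and 3.72 on the high arrays and differences of at least 5.10 at day 6 and at least 8.66 at day 10, with the HFC week 12 spot left out as an outlier.

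Cidea, a lipid droplet protein abundant in brown adipocytes, had levels of 5.55, 6.08 and 7.60, against -0.59, -0.02 and -0.29 on the HFC arrays. Its differences were 6.14, 6.11 and 7.89. Among the other 35 arrays the highest was LFC week 12 at 4.14, where Ucp1 was at -3.90, and the median was -0.26. Cpt1b, the muscle-type carnitine palmitoyltransferase that admits fatty acids to mitochondria, had levels of 0.21, 0.19 and 2.77 and differences of 1.77, 3.00 and 4.78. LFC week 18 came next at -0.50, so the 3 high arrays were again the top 3, by a narrower margin. A second Cpt1b probe differed by 1.35, 2.54 and 2.96.

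Dio2 went against the label. This deiodinase makes active thyroid hormone within brown fat, and its levels of -2.80, -1.50 and -0.80 placed the 3 high arrays 25th, 7th and 3rd of 38. The differences from HFC were -0.59, 0.70 and 2.19. The highest array was HFC week 9 at 1.06, and the other 35 arrays ran from -4.57 upwards, a range that holds all 3 high arrays. The description brown fat transcripts therefore rests on Ucp1, Cidea, Cpt1b and the genes given next, and not on Dio2.

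**Figure D1:**
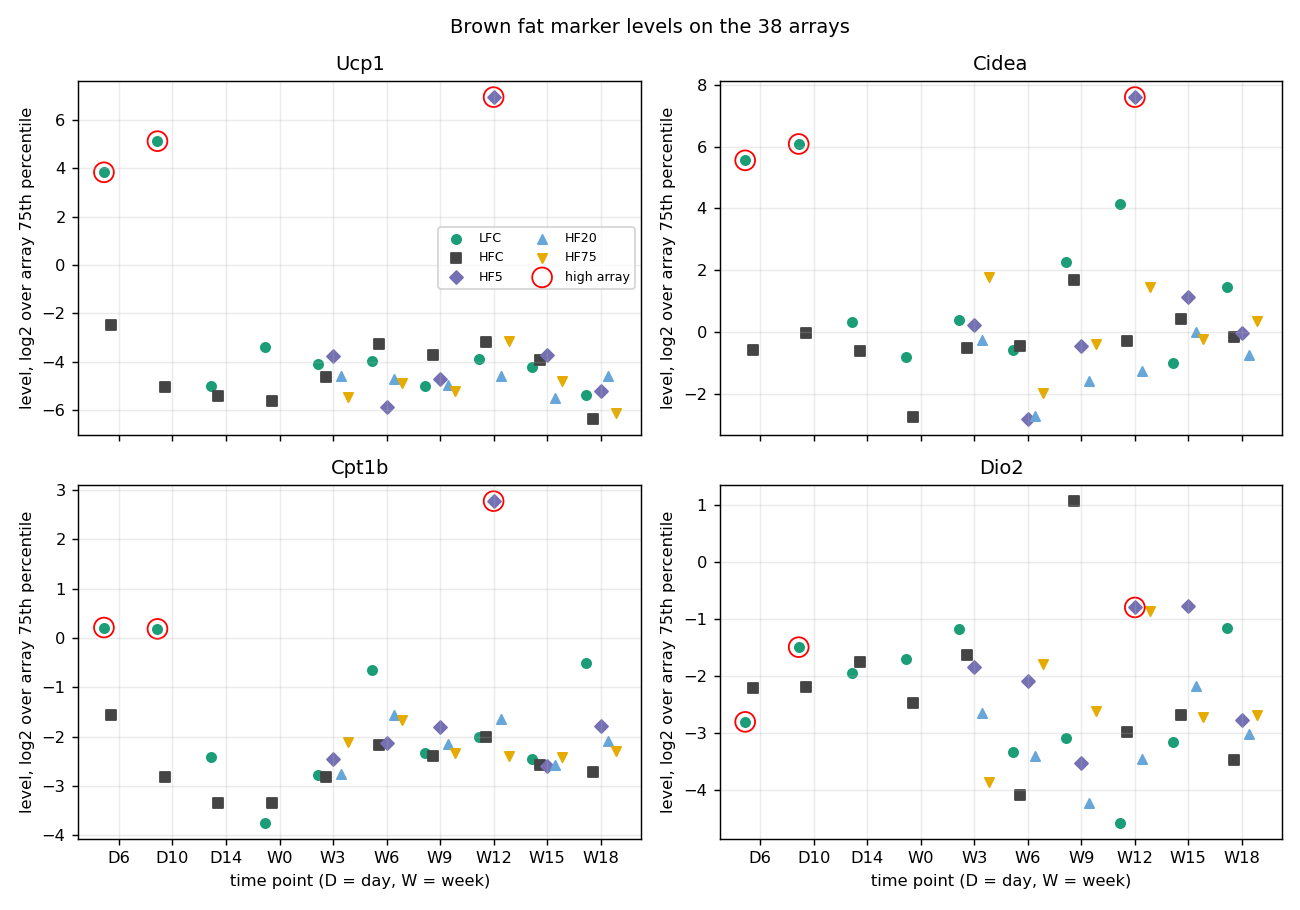
Level of Ucp1, Cidea, Cpt1b and Dio2 on each of the 38 arrays (vertical axis, log2 over the array's 75th percentile) by time point (horizontal axis), with colour and shape for the diet and a red ring around each of the 3 high arrays. The ringed arrays are the top 3 for Ucp1, Cidea and Cpt1b, and lie within the range of the others for Dio2.

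The 2 respiratory subunits that mark brown fat and striated muscle followed Ucp1. Cox7a1 had levels of 4.65, 4.79 and 7.0 against 0.82, 0.23 and 0.38, differences of 3.82, 4.56 and 6.62, and the next array was LFC week 12 at 2.61. Cox8b, the muscle and brown fat form of subunit 8, had levels of 4.14, 4.20 and 6.94 against -0.05, -2.25 and -3.05, differences of 4.18, 6.45 and 9.99. LFC week 12 came close behind with 3.89, so for Cox8b the gap below the 3 high arrays was small. Elovl3, which elongates fatty acids and is induced by cold in brown fat, was at -2.19, -2.61 and -0.72 on the high arrays and not well above background on any HFC array of the pairs. Its differences were at least 3.61, at least 4.38 and at least 5.64, where the dim side is put at the lowest level the HFC array could separate from background. On the lower side, a bound of a given value means that the difference was at least that far below 0.

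Fabp3, the heart-type fatty acid binding protein, had levels of 1.21, 1.51 and 6.29 and differences of 1.24, 1.17 and 6.40, so most of it was on HF5 week 12. S100b, a calcium-binding protein of brown adipocytes as well as of glia, differed by 3.21, 1.68 and 4.66. On LFC week 9 S100b stood at 5.49, above both LFC high arrays at 3.89 and 2.12. Otop1, a proton channel gene of brown fat, was well above background on the 2 LFC high arrays, with differences of at least 1.79 and at least 4.23, and below it on both arrays of the week 12 pair. Cpn2 was well above background on the same 2 arrays, with differences of at least 1.40 and at least 2.66.

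The remaining thermogenic genes moved less or in mixed directions. Adrb3, the β3-adrenergic receptor, differed by 0.56, 1.80 and 2.04, Letmd1, needed for brown fat mitochondria, by 0.80, 1.60 and 3.19, and Pank1, of coenzyme A synthesis, by 0.71, 0.97 and 2.87. Plin5, which ties lipid droplets to mitochondria, differed by 0.46, 0.22 and 3.25, and Ppargc1a, the coactivator of mitochondrial genes, by -0.60, 0.07 and 1.29. These 5 were largest on HF5 week 12 and within 2-fold of HFC at day 6. Kcnk3, a potassium channel of brown fat, went the other way round with 0.96, 1.79 and 0.20. Glycerol kinase Gk had a bound of -2.21 at day 6 and a difference of -2.46 at day 10, and its arrays could not be ordered at week 12. Slc27a2, an acyl-CoA synthetase, differed by -1.63, -0.67 and 0.99, and Oplah, of glutathione turnover, by 0.22, -1.20 and 0.07. Acot11, a thioesterase induced by cold in brown fat, had 0.53, 0.58 and 2.38, and Ntrk3, a neurotrophin receptor, 0.21, -0.83 and 1.87.

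Over the list of 22 thermogenic genes, 20 passed the filter, which asks for a level well above background on all 3 high arrays or on all 3 HFC arrays. At least 2-fold higher in all 3 pairs were 8 of them (Ucp1, Cidea, Cpt1b, Elovl3, Cox7a1, Cox8b, Fabp3 and S100b), none was lower, and 14 of the 20 had a positive difference in all 3. Since the arrays were picked for 4 of these genes, the count describes the choice. Among all probes well above background on the 3 high arrays and comparable in all 3 pairs, 808 of 13889, or 5.82%, were at least 2-fold higher in all 3. Of the 25855 probes that passed and were comparable in all 3 pairs, 6359 were positive in all 3 and 4915 negative. The median difference of the 20 genes was 0.75, 1.39 and 3.03 in the pairs, against 0.11, 0.14 and -0.04 over all probes that passed.

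**Figure D2:**
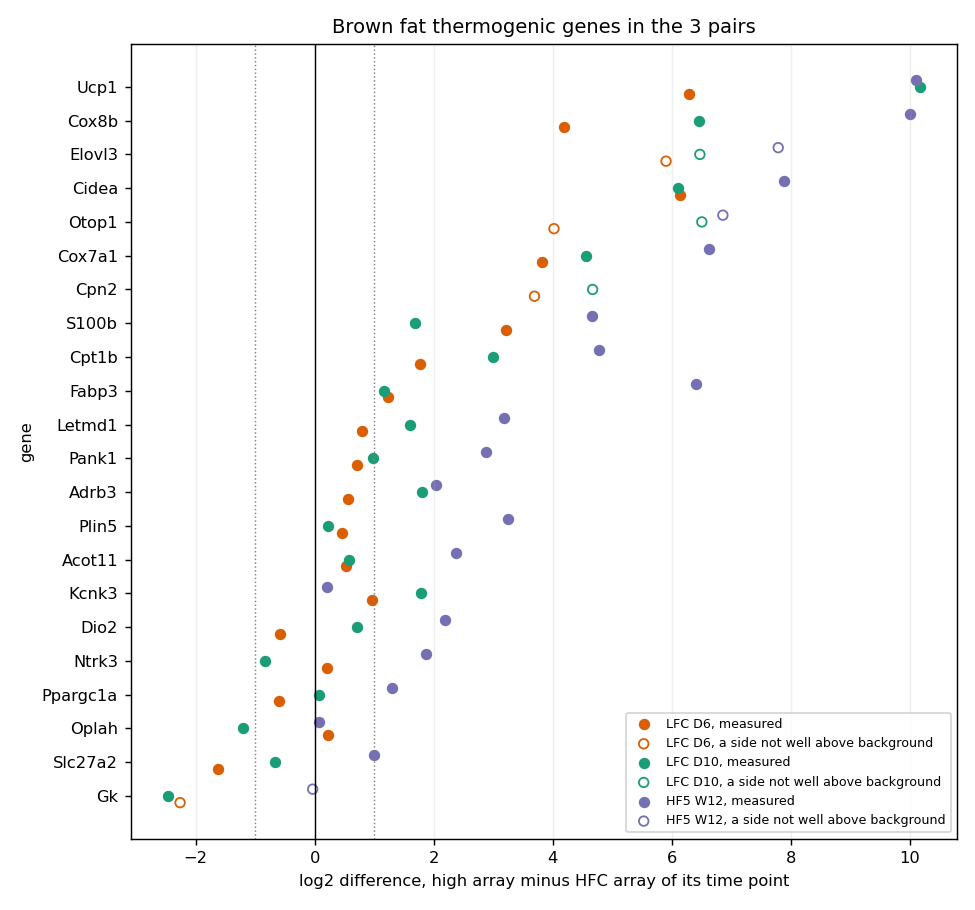
Log2 difference of each listed thermogenic gene between a high array and the HFC array of its time point (horizontal axis, 1 row per gene), coloured by pair, with open circles where a side was not well above background and dotted lines at 2-fold. Ucp1, Cox8b, Elovl3, Cidea and Cox7a1 lie far to the right in all 3 pairs, Dio2, Ppargc1a and Slc27a2 lie around 0, and Cpn2 has no value at week 12 because its HFC spot was an outlier.

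The HFC arrays are 1 choice of comparator, and the other arrays of the same diet are another. Against the median of the other 8 LFC or other 5 HF5 arrays, 7 thermogenic genes were at least 2-fold higher on all 3 high arrays, beside 1185 of 15364 probes (7.71%). At least 2-fold lower on all 3 was 1 thermogenic gene, beside 977 of 27533 probes (3.55%). The medians of the list were 0.90, 1.18 and 3.59. Ucp1 differed by 7.96, 9.25 and 11.63 from those medians. The 3 high arrays were above all 35 others for 242 of 13305 probes, or 1.82%, counted where the probe was well above background on the 3 and measured on all 38. Ucp1, Cidea, Cpt1b, Cox7a1 and Cox8b were among them. Elovl3 was highest on the same 3 among the arrays that measured it, with LFC week 12 next at -4.64. The gap to the highest other array was 6.29 for Ucp1, 2.04 for Cox7a1 and 1.41 for Cidea. No other probe had a gap near that of Ucp1. Unrelated genes had gaps of the size of those of Cox7a1 and Cidea, among them Oxt, the oxytocin gene, with 2.16. Olfr1097, Ugt2b37, Slc26a10 and Pfas had 1.85, 1.82, 1.81 and 1.68. Of the 242 probes 19 were for olfactory receptors, and for 88 the highest other array was HF20 week 18. HF5 week 12 separated probes from background only down to -1.68, so a probe entered this count only if it reached that level there. The same filter stands behind the 5.82% and the 7.71%. Raw levels of dim probes also lie higher on dim arrays, and the part of this in the 242 was not tested. Ucp1 and Cidea were used for the choice, so their gaps restate it.

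Transcription factors that set the brown fat lineage gave no common picture. Prdm16, which directs precursors to brown fat, had levels of 0.89, 1.58 and 2.0 and differences of 0.71, 1.41 and 1.48. Ebf2, a selective factor of brown precursors, differed by 0.26, -0.31 and -0.33. Zic1, a classical brown fat marker, was below background on LFC day 6 and at -0.96 and -0.88 on the other 2 high arrays, with a difference of at least 6.03 at day 10 and an outlier spot on HFC week 12. Lhx8, another marker of the interscapular depot, was just above background on both LFC high arrays at -4.22 and -4.02. Lhx8 was higher on 4 arrays of week 6 with Ucp1 in the low range, at -3.18 on HFC, -2.45 on HF5, -2.75 on HF20 and -3.40 on HF75. The mean of the lineage list was -1.66, -0.86 and -0.11 on the 3 high arrays, and -0.93 on HF20 week 6 and -0.70 on HF75 week 6.

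Of 6 lineage genes that passed, 1 of 4 that could be counted was higher in all 3 pairs (5.82% of all probes). On the lower side it was 1 of 3 (3.82% of all probes). The higher was Tbx15, a T-box factor of brown and muscle-adjacent fat, with levels of -2.12, -2.52 and 0.03 and differences of at least 3.68, 4.25 and 3.93. The lower was Mpzl2, also called Eva1 and reported as a brown adipocyte surface marker, with differences of -2.74, -1.98 and -1.12. None of the 5 beige fat genes that passed was higher or lower in all 3, and their medians were -0.28, -1.33 and -0.63. Tbx1, a marker of beige cells, differed by 0.36, by -3.57 and by a bound of -1.15.

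The listed nuclear receptors and coactivators leaned to the higher side. Of 13 that passed, 8 had a positive difference in all 3 pairs and 2 a negative one, beside 6359 and 4915 of 25855 probes. Of the 13, 9 were well above background on the 3 high arrays and comparable in all pairs, which is how the 5.82% of all probes was counted. At least 2-fold higher in all 3 pairs were 4 of these 9, and none was 2-fold lower in all 3. Ppara, which drives genes of fatty acid oxidation, differed by 1.63, 1.09 and 3.02, and Rxrg, a partner of such receptors, by 1.85, 2.43 and 4.01. Pparg, the adipocyte master regulator, differed by 1.23, 3.97 and 1.28, and Esrra, a regulator of mitochondrial genes, by 1.04, 1.18 and 1.60.

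Of 9 adrenergic signalling genes, 5 could be counted on the higher side, and 2 of the 5 were higher in all 3 pairs, beside 5.82% of all probes. Adra1a, the α1A-adrenergic receptor, differed by 1.27, 2.31 and 3.34 and stood above all 35 other arrays, and Prkar2b, a regulatory subunit of protein kinase A abundant in fat, differed by 1.14, 2.62 and 3.67. Adrb1, the receptor that brown fat precursors use, differed by 1.42 and 2.77 in the LFC pairs and could not be ordered at week 12. The 6 secreted factors that passed had medians of -0.86, -0.43 and -0.95. Of these, 1 was at least 2-fold higher in all 3 pairs and 1 lower, beside 5.82% and 3.82% of all probes. The higher was Nrg4, a growth factor released by brown fat, at 1.72, 1.79 and 3.81. The lower was Metrnl, a cytokine of fat and muscle, at -1.22, -1.68 and -1.67. The 7 creatine cycle genes had medians of -0.30, -0.97 and 0.81. In each direction 6 could be counted, with 1 higher and 1 lower in all 3 pairs, beside the same shares. The higher was Ckmt2, the mitochondrial creatine kinase of striated muscle and brown fat, at no less than 3.93, 2.55 and 7.76. The lower was Ckmt1, its counterpart in other tissues, with a difference of -2.64 and bounds of -2.96 and -0.80. With the dim side put at its bound, none was lower in all 3.

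Lists of fuel burning genes had medians above that of all probes in each pair, smallest at day 6 and largest on HF5 week 12. By mean level HF5 week 12 was the highest of 38 for fatty acid oxidation, the respiratory chain and the citric acid cycle, while LFC day 6 was 7th for each, and LFC day 10 was 6th, 8th and 3rd. The fatty acid oxidation mean was 2.17, 2.58 and 3.26 on the 3 high arrays and 2.92 on HFC week 9, 2.93 on LFC week 9, 2.93 on HF75 week 12 and 3.21 on LFC week 12, which were also the 4 arrays with the highest adipocyte means. The 22 fatty acid oxidation genes had medians of 0.49, 1.07 and 2.51, and 4 of the 18 that could be counted were at least 2-fold higher in all 3 pairs, beside 5.82% of all probes. Cpt2, the inner membrane partner of Cpt1b, differed by 1.03, 1.07 and 3.63, Acadl, a long-chain acyl-CoA dehydrogenase, by 1.1, 1.67 and 3.55, Hadhb, of the trifunctional protein, by 1.18, 1.73 and 3.22, and Etfb, which carries electrons away from these enzymes, by 1.1, 1.44 and 2.84. The liver-type Cpt1a had -0.42, -0.14 and -1.27. Acadvl, the very-long-chain enzyme, had levels of 5.45, 6.17 and 7.02, above every other array that measured it, and could not be compared at day 10.

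The 34 respiratory chain genes had medians of 0.64, 0.92 and 1.91. None was 2-fold higher in all 3 pairs. Of the 32 comparable in all 3 pairs, 31 had a positive difference in each, beside 6359 of 25855 probes. Ndufb10, a complex I subunit, differed by 1.05, 0.98 and 2.20, and Sdhb, of complex II, by 0.07, 0.96 and 1.99. The 16 citric acid cycle genes showed medians of 0.62, 1.18 and 2.33, with none past 2-fold in all 3. Of the 13 comparable in all 3 pairs, 11 were positive in each, beside 6359 of 25855 probes. Lipogenesis genes had medians of 1.30, 0.82 and 1.35. Beside 5.82% of all probes, 3 of 14 were higher in all 3 pairs. They were Fasn, the fatty acid synthase, at 2.01, 1.46 and 2.86, Acly, which supplies its acetyl-CoA, at 2.01, 2.71 and 1.81, and Thrsp, a thyroid-responsive lipogenic gene, at 2.60, 3.65 and 4.18.

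Markers of adipocytes in general were higher too, but the 3 high arrays were not the ones with most of them. The 13 adipocyte genes had median differences of 1.13, 1.22 and 1.23. Of the 12 that could be counted on the higher side, Lipe, Pnpla2, Fabp4 and Slc2a4 were at least 2-fold higher in all 3 pairs. The share of all probes was 5.82%, and Fabp4 was saturated on both arrays at day 6 and day 10. The mean level of the list was 3.55, 2.51 and 2.97 on the high arrays. It reached 4.52 on LFC week 12, 4.68 on HFC week 9, 4.69 on LFC week 9 and 4.76 on HF75 week 12, where Ucp1 was at -3.90, -3.72, -4.98 and -3.15.

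**Figure D3:**
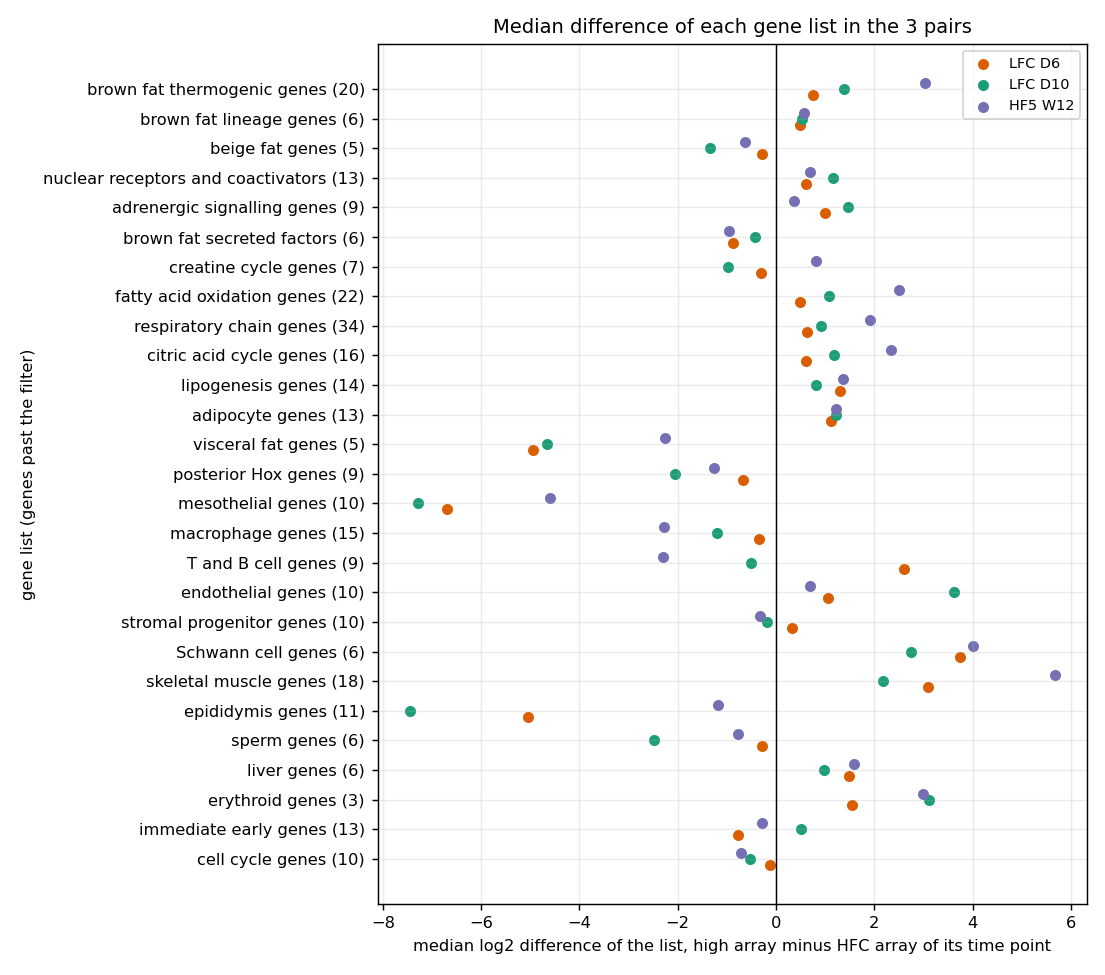
Median log2 difference of each gene list between a high array and its HFC array (horizontal axis), coloured by pair, with the number of genes that passed the filter after each list's name. Thermogenic, fatty acid oxidation, Schwann cell and muscle lists lie to the right in all 3 pairs, and mesothelial, visceral fat and epididymis lists lie to the left in all 3.

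Genes of mesothelium, the cell layer that covers visceral fat, were far lower on the 3 high arrays. Of 10 mesothelial genes, 9 were at least 2-fold lower in all 3 pairs, and 8 with the dim side put at its bound, beside 980 of 25688 probes (3.82%). Msln, mesothelin, had levels of -5.84, -4.28 and -2.46 against 4.36, 3.20 and 4.08, with differences of -7.48 at day 10 and bounds of -9.20 and -5.76 at day 6 and week 12. Krt18, an epithelial keratin, was measured well above background on all 6 arrays and differed by -5.06, -7.38 and -4.52, and Upk3b, of the mesothelial surface, was below background on all 3 high arrays with bounds of -7.57, -6.06 and -2.42. Against the other arrays of their own diet, 9 mesothelial genes were again lower on all 3, beside 977 of 27533 probes (3.55%), with medians of -4.43, -5.73 and -4.12.

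Wt1, a transcription factor of mesothelium and visceral fat precursors, was at 1.56, 1.18 and 1.46 on the HFC arrays and below background on all 3 high arrays, with bounds of -6.41, -6.36 and -3.13. The 5 visceral fat genes that passed had medians of -4.94, -4.67 and -2.26. Of these 2 were lower in all 3 pairs, beside 3.82% of all probes, and 1 with the dim side put at its bound. On each high array only 2 of the 6 listed visceral fat genes were well above background. Among 9 posterior Hox genes, which mark the position of a depot along the body, Hoxb9 was lower in all 3. Its values were -2.31, -3.69 and a bound of -1.22, and 3.82% of all probes were lower in all 3.

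Genes of the epididymis, the duct beside this fat depot, were lower as well. Of 11 epididymis genes 6 were lower in all 3 pairs, and 3 with the dim side at its bound, beside 3.82% of all probes and 462 of 25688 in the same counts. Crisp1, a sperm-coating protein, was at 3.16, 4.89 and 3.39 on the HFC arrays, with bounds of -8.01 and -10.06 and a difference of -4.87. Rnase12 followed with bounds of -7.34, -9.19 and -2.29. The mean level of the epididymis list varied widely outside the pairs, from -7.52 on LFC week 12 to 3.32 on LFC day 14. Over all probes, those far lower in each pair included Akr1b7, an aldo-keto reductase (bounds of -7.93, -8.85 and -6.72), and Sult1e1, the estrogen sulfotransferase (bounds of -7.19 and -6.01, and -8.72 at day 10). Calml3 and Spink8 were below background on all 3 high arrays, with week 12 bounds of -5.08 and -4.95, so no order is given among these genes.

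Muscle genes were on the higher side. Of 18 skeletal muscle genes, 16 could be counted on the higher side, and 9 of these were at least 2-fold higher in all 3 pairs, beside 5.82% of all probes, with list medians of 3.09, 2.18 and 5.68. Myh4, the fast myosin heavy chain, had levels of 2.08, 0.81 and 4.43 against -8.11, -5.13 and -2.86, a difference of at least 7.88, then 5.94 and 7.29. Tnnc2 and Tnni2, of fast troponin, differed by 5.43, 2.81 and 5.69 and by 4.35, 2.53 and 7.13, and Mb, myoglobin, by 1.55, 1.11 and 9.30. Both the heart-type myosin Myh7, at 0.43, 0.18 and 7.05, and Mb were thus furthest from HFC at week 12.

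The mean level of the muscle list was 0.91, -0.36 and 4.00 on the 3 high arrays, -3.24 to 4.66 on the other 35, and highest on LFC week 6. That array had Ucp1 at -3.98, Cidea at -0.59, Cox7a1 at 1.97, Cox8b at 2.58 and Fabp3 at 2.43. Fabp3 there was the highest of the other 35 arrays, and Cox8b the next after LFC week 12. Since the 3 high arrays were set apart by Ucp1 and Cidea, low values of these genes on any other array follow from the choice. Cpt1b, Cox7a1, Cox8b, Fabp3 and Ckmt2 are all expressed by striated muscle as well as brown fat, and the part of muscle RNA in their differences was not tested.

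Schwann cells, which wrap peripheral axons, were also on the higher side. Of 6 genes 5 were higher in all 3 pairs, beside 5.82% of all probes, with medians of 3.73, 2.74 and 4.02. Sox10, the lineage factor of glia, had levels of 0.62, -0.77 and 1.59 against -3.01, -4.16 and -2.99 and differed by 3.64, 3.39 and 4.58. Probes for Mbp, a myelin gene, disagreed. The brightest differed by 0.19, -1.19 and -1.45, and another by 6.26, 3.72 and 7.26. S100b is on the thermogenic list and is also a Schwann cell gene.

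Low mesothelial and high Schwann cell levels were found on other arrays with Ucp1 in the low range as well. The HFC, HF5, HF20 and HF75 arrays of week 6 had mesothelial means of -3.62, -3.94, -4.18 and -1.76. On the 3 high arrays these means were -3.16, -4.36 and -2.47, and the remaining arrays lay between -0.30 and 3.35. Of the 10 mesothelial genes only 5, 5 and 3 were well above background on the 3 high arrays. The others entered at raw levels, which lie higher on a dim array such as HF5 week 12. How close these means lie was therefore not measured. Those 4 week 6 arrays had Schwann cell means of 2.43, 2.63, 2.86 and 2.66 and muscle means of 0.74, 0.95, 1.49 and 1.07. Their thermogenic means, however, were -2.12, -2.37, -2.35 and -2.18, and Ucp1 stood at -3.24, -5.85, -4.70 and -4.87 there. The thermogenic mean was -0.01, 0.35 and 2.11 on the 3 high arrays, and the highest of the other 35 was -0.70 on HF75 week 12. On the 3 high arrays 21, 22 and 19 of the 22 genes were well above background, and the rest entered at raw levels. The part of array brightness in the order of these means was not tested. The part of mesothelial, Schwann cell and muscle RNA in the brown fat result was not tested.

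**Figure D4:**
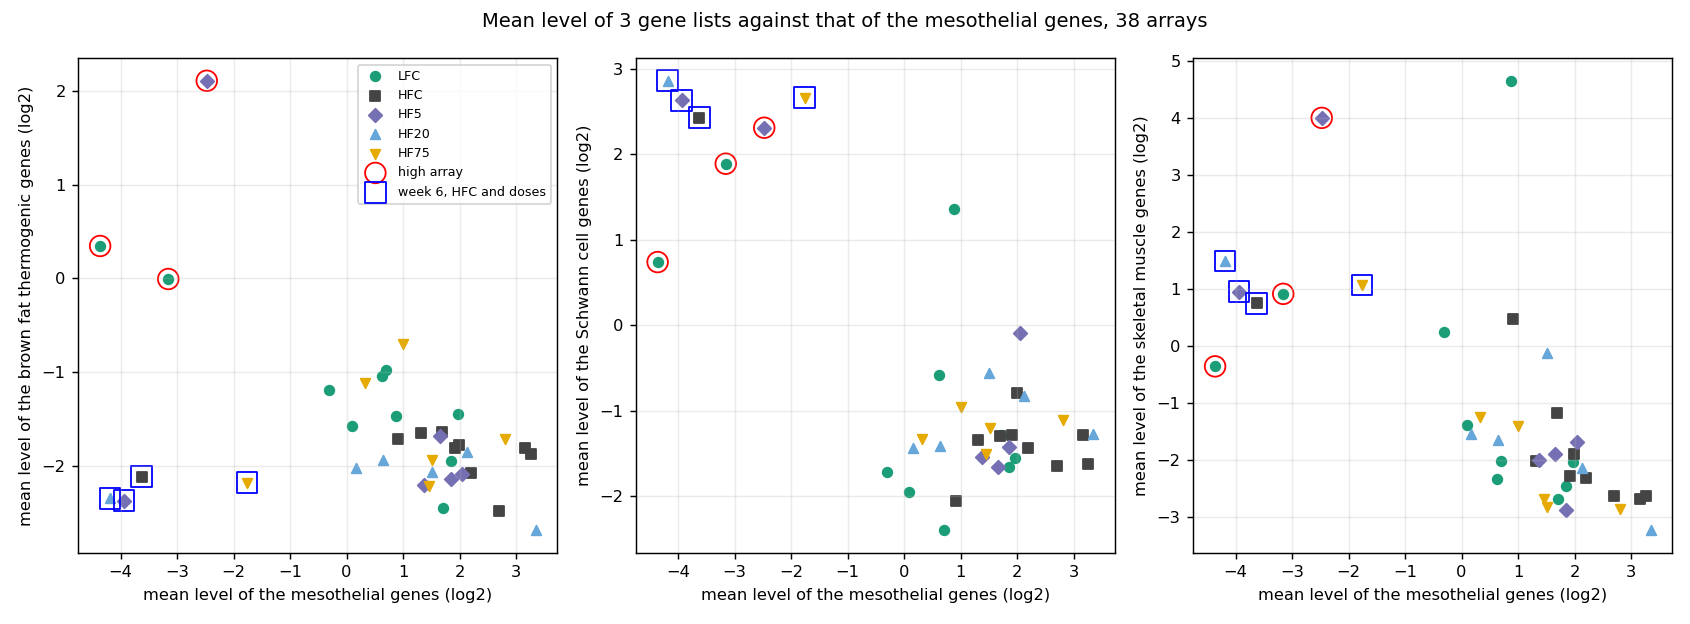
Mean level of the thermogenic, Schwann cell and muscle lists (vertical axes, log2) against the mean level of the mesothelial list (horizontal axes) on the 38 arrays, with red rings on the 3 high arrays and blue squares on the 4 arrays of week 6 from HFC and the dose groups. Both ringed and squared arrays lie to the left in every panel, and the ringed arrays alone are at the top of the thermogenic panel. The means include genes below background, whose levels lie higher on dim arrays.

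Immune and vascular genes differed between the 3 high arrays. T and B cell genes had medians of 2.61, -0.50 and -2.29, with Ms4a1, the B cell gene for CD20, at 2.61 and -1.07 in the LFC pairs and a bound of -2.34 at week 12. Of 15 macrophage genes 12 could be counted on the lower side, and 1 of these, Cd68, was at least 2-fold lower in all 3 pairs, at -1.05, -1.32 and -2.45, beside 3.82% of all probes. A negative difference in all 3 pairs was found for 10 of the 12 comparable macrophage genes, beside 4915 of 25855 probes. The list medians were -0.36, -1.20 and -2.29. Endothelial genes were highest on LFC day 10, where their median was 3.62, against 1.07 and 0.69 on the other 2. Of 9 that could be counted, Flt1 and Kdr, both receptors for VEGF, were higher in all 3 pairs, beside 5.82% of all probes. Flt1 differed by 1.93, 4.89 and 1.46 and Kdr by 1.32, 3.78 and 1.09. Stromal progenitor genes gave no member past 2-fold in all 3 pairs in either direction.

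The 3 erythroid genes that passed were higher in all 3 pairs, beside 5.82% of all probes. The globin gene Hba-a1 was saturated at day 6 and day 10, and Alas2, of haem synthesis in red cell precursors, differed by 1.39, 3.76 and 2.98. Of 6 liver genes 3 could be counted on the higher side. Of these Mup1 and Mup19, major urinary proteins, were higher in all 3 pairs, beside 5.82% of all probes. Mup1 reached 7.34 at day 6 against 1.90 and 1.92. Mup genes are near-identical copies, so their probes may share signal. Of 6 sperm genes 4 had a negative difference in all 3 pairs, beside 4915 of 25855 probes, with list medians of -0.29, -2.49 and -0.77. Of 3 that could be counted on the higher side 1, Tnp2, was higher by 1.18, 1.94 and 3.88, beside 5.82% of all probes. Of 10 cell cycle genes 6 had a negative difference in all 3, beside the same 4915 of 25855 probes, with medians of -0.11, -0.53 and -0.71. Of 4 that could be counted as higher 1, Bub1, of the mitotic checkpoint, was higher by 1.06, 2.42 and 5.30, beside 5.82% of all probes. None of the 13 immediate early genes, which respond within minutes to handling of tissue, was higher or lower in all 3 pairs.

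Over all probes, Ucp1 and Cidea had the largest values for the smallest of the 3 differences. Others far higher in each pair were Myh4, Elovl3, Pou1f1, Pvalb, Cox8b and Thbs4, in no order, since several were below background on HFC arrays and have only bounds there. Pou1f1, a pituitary transcription factor, differed by at least 2.43, at least 3.06 and 6.04, and Thbs4, a thrombospondin of tendon and muscle, by 4.11, 4.12 and 4.96. Ugt2b37, a glucuronosyltransferase, had 4.11, 5.52 and 7.90, and Pfas, of purine synthesis, 3.74, 5.62 and 7.10. Further down were the muscle genes Tnnt3, Trdn and Xirp2, Tbx15, Cox7a1, Mbp, Slc22a6, and the olfactory receptor probes Olfr855, Olfr525 and Olfr1205.

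Each pair also had differences of its own. LFC day 6 alone was higher for Apol7c, by 5.64 against -0.21 at day 10, and for Myb, by 2.10 against -4.00. LFC day 10 had a bound of -5.66 for Xist, the RNA that silences an X chromosome in female cells, since HFC day 10 carried it at 0.49 and LFC day 10 was below background, while both arrays of the other pairs were below background. HF5 week 12 had Cldn4, an epithelial claudin, higher by 3.58, against -6.03 at day 6 and a bound of -5.69 at day 10. On that array Ccl3, a macrophage chemokine, had a bound of -5.81, against -1.05 and -0.55.

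The same diets were also compared at the remaining time points. These are not independent of the choice, since all 38 arrays were ranked for Ucp1, Cidea, Cpt1b and Dio2 and the high time points were then taken out, so values of these 4 genes are given with no test. At the other 8 time points LFC and HFC were compared by limma with time point as a block, and 0 of 30536 probes (0%) passed an adjusted p of 0.05. At an unadjusted p under 0.05 there were 1086 (3.56%), 274 higher and 812 lower, the smallest adjusted p was 0.829, and the methods' t-test called 0 as well, with 349 at an unadjusted p under 0.05. Ucp1 differed by 0.15 ± 0.36 (SE, 8 time points), against 1.77 ± 1.03 with days 6 and 10 included. Cidea differed by 1.11 ± 0.53, Cpt1b by 0.56 ± 0.30 and Dio2 by -0.27 ± 0.60. Cox8b differed by 1.80 ± 0.74 (limma adjusted p = 0.829) and was higher at 5 of 8. The choice did not use Cox8b by name, but the LFC arrays taken out were those where it was highest. Its values are thus not independent of the choice either. Elovl3, Otop1 and Cpn2 were too dim to test.

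By sign alone, the fuel lists leaned to LFC at these 8 time points. Of 19 thermogenic genes tested 16 had a difference above 0, with a median of 0.27, as did 34 of 34 respiratory chain genes, with a median of 0.29, and 16 of 16 lipogenesis genes, with a median of 0.76. Adipocyte genes leaned the same way, 12 of 13 above 0 with a median of 0.48. Macrophage genes, 0 of 16 with a median of -0.60, and T and B cell genes, 0 of 11 with a median of -0.75, leaned the other way, and the part of these cells in the lean was not tested. Over all probes 14324 of 30536 were above 0, with a median of -0.03. The thermogenic count holds Ucp1, Cidea and Cpt1b above 0 and Dio2 below 0. The choice of arrays used these genes, so that count and its median are a description only. Genes of a list rise and fall together from array to array, and no member passed the test. Much of the Cidea and Cox8b difference came from week 12, where LFC stood above HFC by 4.43 and 6.94.

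At the other 5 time points HF5 and HFC were compared in the same way, and 0 of 29860 probes (0%) passed by limma or by the methods' t-test. At an unadjusted p under 0.05 limma gave 1961 (6.57%), 902 higher and 1059 lower, and the methods' t-test 909, with a smallest limma adjusted p of 0.739. Ucp1 differed by -0.27 ± 0.58 (SE, 5 time points), Cidea by -0.58 ± 0.58, Cpt1b by 0.38 ± 0.22 and Dio2 by -0.04 ± 0.98. Single time points turned or moved these values, since Ucp1 was 0.31 without week 6, and without week 9 Dio2 was 1.1 and Cidea -0.19. For weeks 15 and 18 the HF5 and HF20 arrays carry a diet label that names the other dose, and the titles were followed here. With the diet label in their place Ucp1 differed by -0.50 and Cidea by -0.95. Of 19 thermogenic genes 5 were above 0, with a median of -0.27, and these 19 again hold Ucp1, Cidea, Cpt1b and Dio2. Without week 6 the smallest adjusted p was 0.0589 by limma.

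**Figure D5:**
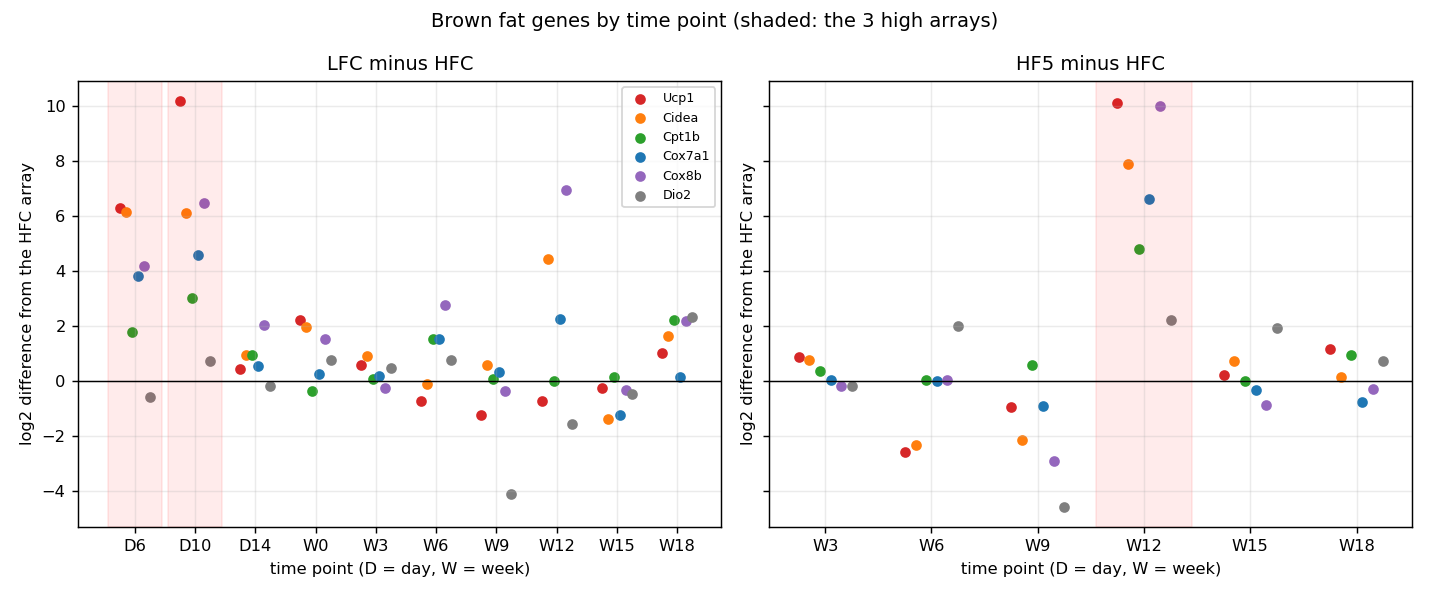
Log2 difference from the HFC array of the same time point (vertical axis) for Ucp1, Cidea, Cpt1b, Cox7a1, Cox8b and Dio2 on the LFC arrays (left) and the HF5 arrays (right), by time point, with the 3 high arrays shaded. Outside the shaded time points Ucp1 stays between -2.61 and 2.22. On LFC week 12 Cox8b, at 6.94, lies within its own shaded values of 4.18 to 9.99. Cidea there, at 4.43, lies below its own of 6.14, 6.11 and 7.89. Dio2 does not stand apart at the shaded time points.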

How the data were processed

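RNA was labelled with Cy3 and hybridised to one-colour Agilent arrays, and the deposited files are scanner output with 43803 non-control spots for 40628 probes. The intensity used is the authors' processed signal, per the file headers background-corrected by Feature Extraction, whose version is 10.5.1.1 in the headers and 9.1 in the labels. A second deposited table of the authors' own log2 ratios to the low fat arrays was not used. No depth exists for arrays, and their number limits the precision.

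Spots marked as outliers were left out, spots of a probe averaged, and log2 intensity minus each array's 75th percentile taken as the level. By accession 28909 probes were named, others by symbol or file name, and 85.4% are in the RefSeq gene table used. In lists a gene is its probe of highest mean level. A list mean averages the raw levels of all members, also those below background, which lie higher on dim arrays. Genes were named as list members, as the 25 highest and 15 lowest symbols by the smallest of the 3 differences, and as the 5 most particular to each pair and direction. A dim side gives a bound at the lowest level well above background. The arrays, lists and tests were chosen with earlier results of these data known.

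The series text speaks of 3 biological replicates, and 1 array per diet and time point was analysed, so time points served as replicates. Nothing says that they came from separate cultures or cages, so p-values measure the spread between these arrays. Differences outside the pairs were tested with limma 3.58.1 in R 4.3.3 (two-sided, Benjamini-Hochberg), with time point as a block, after a check on simulated data in which 200 probes were changed. Deviations of arrays of 1 time point correlated with a median of 0.41 for LFC and HFC (-0.27 to 0.83) and 0.55 for HF5 and HFC (0.076 to 0.70), and 6 of 8 and 3 of 5 correlated best with their own time point. The methods' t-test and GeneSpring were described for liver arrays of the same feeding experiment. Alternatives were normalization, background correction, fold, filter, comparator, block and leaving out pairs or time points. The values of 1 listed gene are not reported here.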

Additional observations from a re-analysis of the deposited data

Results flagged for a closer look

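Within a diet group 1 array was set apart in 11 of 45 groups tested, over 9 measures. The criterion was a gap to the nearest array that was a large share of the group's range. For a single group chance gives about 1 in 20. The measures include Ucp1, Cidea, Cpt1b, Dio2 and the thermogenic mean, which are tied to the choice of arrays. They also share the same arrays, so 11 of 45 cannot be set against that rate. In HF5 the week 12 array was the highest, with a gap of 0.834 of the range for Ucp1, 0.850 for Cpt1b and 0.846 for the thermogenic mean. That array was picked for high values of these genes, so these 3 gaps restate the choice and are not to be set against chance. In HFC the lowest array for Cidea was week 0 (0.482 of the range, level -2.76) and the highest for Dio2 was week 9 (0.523, level 1.06). HFC week 6 was the lowest for the visceral fat mean (0.854) and the mesothelial mean (0.659), and the highest for the Schwann cell mean (0.719). HF20 week 6 (0.796) and HF75 week 6 (0.868) were the highest of their groups for the Schwann cell mean, and LFC week 6 was the highest LFC array for the muscle mean (0.509, level 4.66).

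HF20 and HF75 arrays served above only among the other 35 arrays, and no comparison of these diets with HFC was made. Some of them lay above every HFC array. Cidea was at 1.77 on HF75 week 3, against 1.69 on the highest HFC array, and Cpt1b on HF20 week 6 was at -1.56, level with the highest HFC array to 2 decimals. The thermogenic mean was -1.12 on HF75 week 3 and -0.70 on HF75 week 12, against -1.64 on the highest HFC array. HF75 week 3 is the second dimmest array, and 14.3% of the spots of HF75 week 12 were outliers.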

How the results depend on the processing

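The 808 probes at least 2-fold higher in all 3 pairs became 162 with normexp background correction and quantile normalization, 1345 against the median of the 10 HFC arrays, 146 at 4-fold and 2373 with no filter on dim probes; leaving out a pair gave 1361 (without LFC day 10) to 1813 (without HF5 week 12), with 1654 without LFC day 6, as fewer pairs must pass. The 980 lower probes became 558 with normexp, 320 at 4-fold, 182 where all 6 arrays were well above background and 462 with the dim side at its bound; leaving out a pair gave 1248 (without LFC day 10) to 3040 (without HF5 week 12), with 1802 without LFC day 6. Other causes were not tested. The thermogenic median of 1.49 over the 3 pairs moved by less than its spread under each alternative run. That spread is the standard deviation of the 3 pair medians, 0.75, 1.39 and 3.03, so only a large move could exceed it. Of the 4 markers 3 stayed highest on the 3 high arrays under each scaling, and the arrays were picked by these markers. Over the other 26 lists, 149 of 182 values moved by less than their spread, taken in the same way, and 33 by more. A change of sign was counted only for lists with a median of at least 2-fold, and 0 were found. Changes of sign of smaller medians were not counted. Without the replicate block 0 probes passed in both tests, as with it, and with 346 and 1086 at an unadjusted p under 0.05; the block changed no call. Leaving out 1 time point also left 0 called in both. Settings with outlier spots kept and with the dim side at its bound were added after seeing the data. HF5 week 12 separated the fewest probes from background, down to a level of -1.68, so losses there are mostly bounds.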
